A study of Mus musculus with 8 samples.

Results

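The 10 genes described here encode the core of the elastic fibre and its microfibril scaffold: Eln, Fbn1, Fbn2, Fbln1, Fbln2, Fbln5, Mfap2, Mfap4, Mfap5 and Emilin1. They were taken by symbol from a table of 46635 genes, and all 10 were found. The values come from RNA-seq of wild-type mouse small intestine shaken in EDTA to take off the epithelium; the labels call what remained mesenchyme. The stages were E17.5 (fetal, 4 libraries) and P14 (pups, 4 libraries), and libraries are numbered by their replicate. The labels name no allele or agent in either group and set the groups apart by age. Separate animals are not stated for the replicates; the p-values below therefore speak of the spread among these samples only, and part of it may be technical.

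An elastic fibre has a core of cross-linked elastin, encoded by Eln, laid down on bundles of microfibrils whose backbone is made of fibrillins. The microfibril-associated glycoproteins of Mfap2 and Mfap5 bind fibrillin, fibulins and the protein of Mfap4 help to bring tropoelastin to the microfibril, and EMILIN-1 lies where elastin meets the microfibril. Lysyl oxidases then cross-link the deposited elastin. In the gut wall elastic fibres are found in the muscle layers, the submucosa and the walls of vessels, and fibroblasts and smooth muscle cells are both known to make their parts. RNA levels do not show how much fibre had been deposited.

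Levels are given as FPKM, so that levels of genes of different length can be set side by side. FPKM are reads scaled by gene length and by an effective library size, which differed from the reads assigned to genes. From 16660998 to 19496632 reads were assigned to genes in a library, and each of the 10 genes passed the low-value filter (4 libraries or more with FPKM at or above 1). Eln had 3990 to 30756 reads per library, and Mfap5, the least abundant, had 64 to 535. P14 library 1 stood apart from the other libraries. The summed FPKM of the 14 pan-epithelial markers was 4850 in it, against 146, 747 and 271 in P14 libraries 2, 3 and 4 and 36.1 to 58.4 before birth. Summed fibroblast markers were at 1125 FPKM in it, against 3148 to 3227 in the other P14 libraries and 3025 to 3368 before birth. Smooth muscle markers were at 2936, against 8038 to 11284 in the other P14 libraries and 4996 to 5477 before birth; of these 10 markers 9 were tested, Tagln being listed at 0.222 to 1.19 FPKM. Higher epithelial markers at P14 were not limited to that library: 10 of 11 tested were called higher with it and 10 without it. The fits of the 10 genes are given with and without P14 library 1. In whole tissue, fewer cells of a type and less RNA per cell cannot be told apart.

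The 10 genes did not move as a block. With all 8 libraries, Mfap5 rose from E17.5 to P14, Fbn2, Mfap2 and Mfap4 fell, and the other 6 did not pass the test (limma on log2(FPKM + 1), Benjamini-Hochberg adjusted p under 0.05 over 14044 tested genes). Of all tested genes 24.7% passed, 9.72% as increases and 15.0% as decreases. Without P14 library 1, Eln and Fbln2 joined Mfap5 among the increases and the same 3 genes fell, which makes 3 up, 3 down and 4 not passing. The background was then 49.5% called, 22.6% up and 26.9% down of all tested genes, beside 6 of the 10 members; with all libraries it was 24.7% beside 4 of 10. Neither share of members lies far from its background. By ranges alone, 3 of the 10 genes (Fbn2, Mfap2 and Mfap4) were lower in every pup library than in every fetal one and 0 were higher, against 20.4% and 15.6% of tested genes (36.0% in all). Without P14 library 1, 3 were higher (24.8% of tested genes) and 3 lower (29.7%), 6 in all (54.5%). The median log2 fold change of the 10 genes was -0.20 with all libraries and 0.13 without P14 library 1, against 0.00219 and -0.03 over all tested genes.

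**Figure D1:**
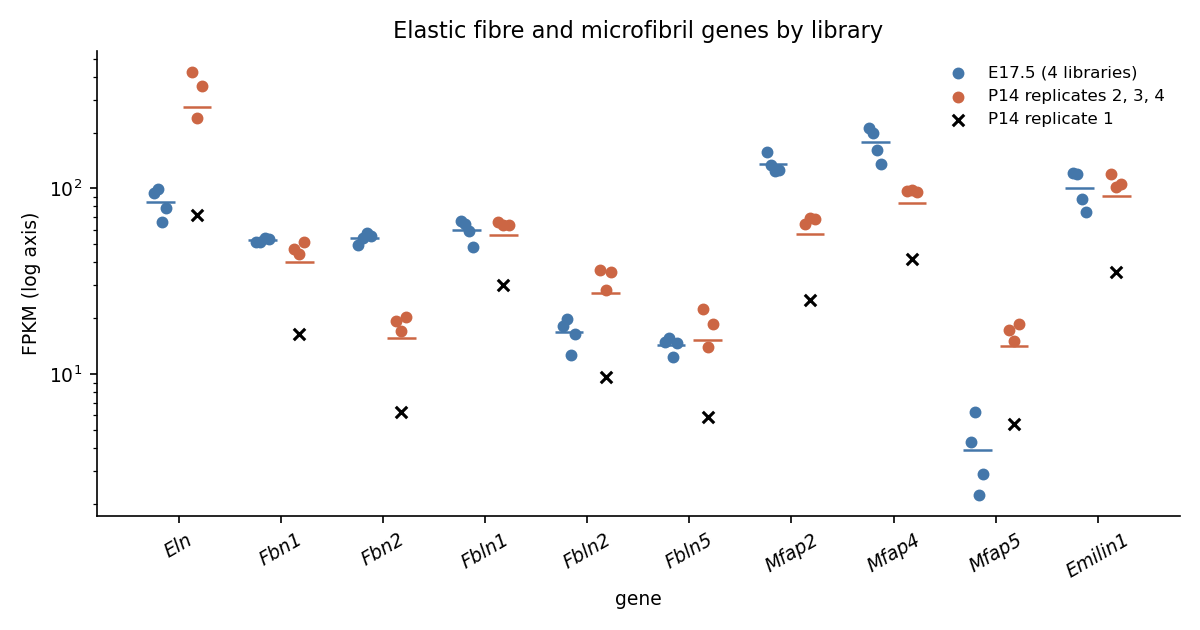
FPKM (log axis) of the 10 genes in each library, with E17.5 in blue, P14 libraries 2, 3 and 4 in orange, P14 library 1 as a cross and horizontal lines at the means of the 4 libraries of an age. Eln lies at 239 to 424 FPKM in the 3 orange points and 65.8 to 98.97 before birth, while Fbn2 and Mfap2 lie lower at P14 than before birth in every library.

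Promoter sequence was on hand from RefSeq (GRCm38.p6) for 6 of the 10 genes: Fbn1, Fbln1, Fbln2, Fbln5, Mfap2 and Emilin1. The 250 bases before the most upstream listed start are shown for 1 gene that fell (Mfap2), 1 that rose without P14 library 1 (Fbln2) and 1 that passed in neither fit (Fbn1), each 5′ to 3′ with matched motifs in capitals.
Mfap2, chr4:141010174-141010423, plus strand: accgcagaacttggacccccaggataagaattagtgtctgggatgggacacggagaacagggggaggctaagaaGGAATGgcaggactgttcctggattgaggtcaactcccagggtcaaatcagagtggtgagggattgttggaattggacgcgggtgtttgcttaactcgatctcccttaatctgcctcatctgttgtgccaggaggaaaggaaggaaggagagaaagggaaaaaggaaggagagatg
Fbln2, chr6:91212514-91212763, plus strand: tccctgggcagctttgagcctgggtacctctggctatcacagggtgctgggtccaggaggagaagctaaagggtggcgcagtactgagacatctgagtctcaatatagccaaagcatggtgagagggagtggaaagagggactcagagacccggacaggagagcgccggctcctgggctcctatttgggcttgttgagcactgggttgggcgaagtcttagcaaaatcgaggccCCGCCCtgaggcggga
Fbn1, chr2:125506439-125506688, minus strand: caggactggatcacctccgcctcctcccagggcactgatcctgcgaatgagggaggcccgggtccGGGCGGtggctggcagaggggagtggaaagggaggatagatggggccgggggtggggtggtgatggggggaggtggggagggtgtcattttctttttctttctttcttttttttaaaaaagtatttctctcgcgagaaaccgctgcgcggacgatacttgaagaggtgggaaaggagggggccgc
Both strands were searched for the GC box (GGGCGG), the TATA box (TATAAA), the AP-1 site (TGANTCA), the TEAD site (GGAATG), the SMAD element (GTCTAGAC), the E-box (CACGTG) and the CArG box, and no 2 matches overlapped in the sequences shown. The Mfap2 sequence holds 1 TEAD match at positions -176 to -171 from the start, letters found in 12.6% of 32851 promoters of the same length. Fbln2 holds 1 GC box at -16 to -11, and Fbn1 holds 1 at -185 to -180, a motif found in 32.7% of promoters. Mfap2 has another listed start, not shown, whose upstream bases hold GC boxes at -51 to -46 and -7 to -2 and no TEAD match. The motifs found thus depend on the start chosen. A match describes the letters only and does not show that a factor binds.

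Elastin, the elastic core, had the widest range of any of the 10 genes at P14. Eln (gene 13717, chromosome 5, 134731449 to 134776300, minus strand, on GRCm39 as are the coordinates below) was at 94.4, 98.97, 65.8 and 78.6 FPKM in fetal libraries 1 to 4. It was at 71.6, 424, 239 and 358 FPKM in P14 libraries 1 to 4. P14 libraries 2, 3 and 4 all lay above every fetal library, and P14 library 1 lay inside the fetal range. The means were 84.4 ± 15.2 (SD, n = 4) and 273 ± 155 FPKM (n = 4), with a log2 fold change of 1.43 (SE 0.515, adjusted p = 0.0775) that missed the threshold. Without P14 library 1 the P14 mean was 341 ± 93.8 FPKM (n = 3), 4.04 times the fetal mean, and Eln rose by 1.98 on the log2(FPKM + 1) scale (SE 0.216, adjusted p = 0.000307). The order of the P14 libraries in Eln was replicate 2 highest, then 4, 3 and 1. That was also their order in the summed smooth muscle markers (11284, 10089, 8038 and 2936 FPKM) and the reverse of their order in the epithelial sum. The order was not particular to smooth muscle. It was shared by the sums of pericyte and vascular muscle markers (392, 368, 335 and 140 FPKM) and enteric neuron markers (423, 334, 325 and 100). The sum of adventitial and submucosal fibroblast markers shared it too (145, 142, 127 and 89.6 FPKM), as did Fbln2, Fbln5 and Emilin1. The sum of cartilage, striated muscle and adipose markers shared it mainly through Ckm, at 44.8, 34.0, 29.0 and 10.2 FPKM in the same order. The cartilage markers Acan and Col2a1 reached at most 0.0355 and 0.176 FPKM. The adipose markers Adipoq and Plin1 were instead highest in P14 library 3 and lowest in P14 library 2. The part of cell make-up in the spread of Eln was not tested. An opposite-strand predicted gene, Gm30003, overlaps Eln and reached at most 0.8295 FPKM, and none of the other 9 genes overlaps another row of the table.

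The fibrillins, the backbone of the microfibril, parted. At E17.5 the pair stood at almost the same level, Fbn1 (gene 14118, chromosome 2, 125142514 to 125348417, minus strand) at 51.4, 51.1, 54.3 and 53.2 FPKM in replicates 1 to 4 and Fbn2 (gene 14119, chromosome 18, 58141689 to 58343200, minus strand) at 49.7, 53.98, 57.4 and 55.4. At P14, Fbn1 was at 16.5, 47.4, 44.4 and 51.7 FPKM and Fbn2 at 6.24, 19.3, 17.1 and 20.3. Every P14 value of Fbn2 was below every fetal value, whereas the Fbn1 value of P14 library 4 lay inside the fetal range. Fbn2, known as the fibrillin most used in fetal tissue, went from 54.1 ± 3.27 to 15.7 ± 6.46 FPKM (log2 fold change -1.84, SE 0.328, adjusted p = 0.00709). Without P14 library 1 the P14 mean was 18.9 ± 1.61 FPKM (n = 3), the fetal mean being 2.86 times as high (log2 fold change -1.47, SE 0.0834, adjusted p = 1.08e-05). Its call held in every fit with 1 library left out (adjusted p 1.08e-05 to 0.0282). Fbn1, the fibrillin of adult microfibrils, was at 52.5 ± 1.5 and 39.98 ± 15.97 FPKM and did not pass with all libraries (log2 fold change -0.51, SE 0.331, adjusted p = 0.292) or without P14 library 1 (47.8 ± 3.7 FPKM, log2 fold change -0.13, SE 0.074, adjusted p = 0.162).

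The microfibril-associated glycoproteins MAGP-1 and MAGP-2, encoded by Mfap2 and Mfap5, went in opposite directions. Mfap2 (gene 17150, chromosome 4, 140737735 to 140743286, plus strand) was at 157, 133, 125 and 126 FPKM before birth and at 24.9, 64.0, 69.6 and 68.3 at P14. The ages did not overlap. Mfap2 fell from 135 ± 15.1 to 56.7 ± 21.3 FPKM (log2 fold change -1.34, SE 0.319, adjusted p = 0.0204), and without P14 library 1 to 67.3 ± 2.93 (n = 3; log2 fold change -0.99, SE 0.0954, adjusted p = 0.000113). Its call was lost without fetal library 1 (adjusted p = 0.0565), 2 (0.0539), 3 (0.0554) or 4 (0.0528). Mfap5 (gene 50530, chromosome 6, 122490543 to 122506249, plus strand) was at 4.29, 6.24, 2.24 and 2.9 FPKM before birth and at 5.4, 17.3, 15.03 and 18.6 at P14. P14 library 1 lay inside the fetal range and the other 3 P14 libraries lay above it. Mfap5 rose from 3.92 ± 1.77 to 14.1 ± 5.96 FPKM (log2 fold change 1.56, SE 0.399, adjusted p = 0.0259), and without P14 library 1 to 16.96 ± 1.79 (n = 3; log2 fold change 1.93, SE 0.26, adjusted p = 0.000881). With all libraries the call was lost without any one of fetal libraries 1, 3 and 4 and P14 libraries 2, 3 and 4 (adjusted p 0.0551 to 0.0786). It was also lost after rescaling to TPM (adjusted p = 0.0612) and in voom on the recovered reads (0.0734).

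Mfap4, which encodes a fibrinogen-domain protein that binds tropoelastin and fibrillin, was the most abundant of the 10 genes before birth. Mfap4 (gene 76293, chromosome 11, 61376257 to 61379536, plus strand) was at 212, 199, 161 and 135 FPKM in fetal libraries 1 to 4 and at 41.6, 96.6, 98.5 and 95.2 in P14 libraries 1 to 4. Every P14 library was below every fetal library. It fell from 177 ± 35.0 to 83.0 ± 27.6 FPKM (log2 fold change -1.14, SE 0.298, adjusted p = 0.028), and without P14 library 1 to 96.8 ± 1.67 (n = 3; log2 fold change -0.84, SE 0.147, adjusted p = 0.00202). The call with all libraries was lost without fetal library 1 (adjusted p = 0.0741), 2 (0.076) or 3 (0.0688) and in voom on the recovered reads (0.0539).

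Of the fibulins among the 10 genes, only Fbln2 passed in these fits, and only without P14 library 1. Fbln2 (gene 14115, chromosome 6, 91189442 to 91249522, plus strand), a fibulin that binds elastin and fibrillin, was at 18.0, 19.9, 12.7 and 16.5 FPKM before birth and at 9.67, 36.4, 28.5 and 35.5 at P14. P14 library 1 lay below the fetal libraries and the other P14 libraries above them. With all libraries the means were 16.8 ± 3.06 and 27.5 ± 12.4 FPKM (log2 fold change 0.54, SE 0.393, adjusted p = 0.339), and without P14 library 1 the P14 mean was 33.4 ± 4.33 (n = 3; log2 fold change 0.96, SE 0.151, adjusted p = 0.00117). Fbln5 (gene 23876, chromosome 12, 101712824 to 101785541, minus strand), whose protein tethers tropoelastin to microfibrils and cells, was at 14.9, 15.7, 12.3 and 14.7 FPKM before birth and at 5.85, 22.4, 14.03 and 18.6 at P14. Its ages overlapped, with a log2 fold change of -0.06 (SE 0.351, adjusted p = 0.917) and, without P14 library 1, 0.31 (SE 0.148, adjusted p = 0.115). Fbln1 (gene 14114, chromosome 15, 85090150 to 85170495, plus strand), a fibulin of basement membranes and elastic fibres, was at 67.0, 64.4, 58.8 and 48.4 FPKM before birth and at 30.2, 66.3, 63.7 and 63.3 at P14. Apart from P14 library 1 its values overlapped between the ages, with a log2 fold change of -0.15 (SE 0.259, adjusted p = 0.702) and, without that library, 0.12 (SE 0.112, adjusted p = 0.402).

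Emilin1 (gene 100952, chromosome 5, 31070729 to 31078623, plus strand), which encodes the elastin microfibril interfacer EMILIN-1, was at 120.4, 120.2, 88.2 and 74.2 FPKM before birth and at 35.3, 120.3, 102 and 106 at P14. P14 libraries 2, 3 and 4 lay within the fetal range and replicate 1 below it. It did not pass with all libraries (log2 fold change -0.26, SE 0.386, adjusted p = 0.653) or without P14 library 1 (0.14, SE 0.175, adjusted p = 0.522). The signs of Emilin1, Fbln1 and Fbln5 thus turned with that library, and none is read as a change.

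**Figure D2:**
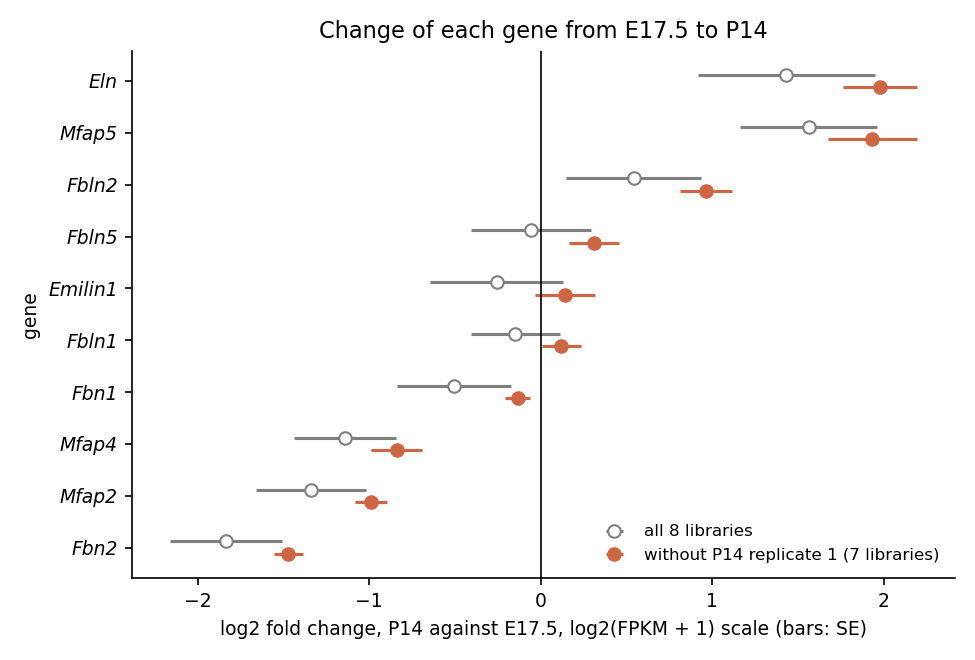
Change of each gene from E17.5 to P14 in log2(FPKM + 1), bars giving the SE, from all 8 libraries (open grey) and without P14 library 1 (orange). Eln, Mfap5 and Fbln2 lie to the right of 0 and Fbn2, Mfap2 and Mfap4 to the left in both fits, and the bars shrink without P14 library 1.

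All 10 genes were lower in P14 library 1 than in each other P14 library. The ratio of its level to their mean ran from 0.21 for Eln to 0.468 for Fbln1, and it was 0.304 for the summed FPKM of the 10 genes. The same ratio was 0.352 for the fibroblast markers, 0.3 for the smooth muscle markers, 0.382 for pericyte and vascular muscle markers and 12.5 for the pan-epithelial markers. To set the 10 genes apart from differences that scale a whole library, 6 ratios of 1 member to another were compared within each library by two-sided exact permutation tests (70 ways of labelling 4 libraries fetal), adjusted over the 6 ratios; the smallest possible p is 0.0286.

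The fibrillin ratio was the tightest of the 6 at P14. Fbn2 over Fbn1 was 0.966, 1.06, 1.06 and 1.04 in fetal libraries 1 to 4 and 0.379, 0.408, 0.386 and 0.391 in P14 libraries 1 to 4. P14 library 1 lay beside the other P14 libraries in this ratio, although its level of each gene was about 0.33 to 0.344 times theirs. The difference in mean log2 ratio was -1.40 (0.04 ± 0.062 before birth against -1.36 ± 0.0443 at P14, n = 4 each; exact p = 0.0286, adjusted 0.0343), and it was -1.38 without P14 library 1.

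Mfap5 over Mfap2, the 2 MAGP genes, was 0.0273, 0.0467, 0.018 and 0.0231 before birth and 0.217, 0.2697, 0.216 and 0.272 at P14. The ages did not overlap, with P14 library 1 among the other P14 libraries, and the difference was 3.16 on the log2 scale (exact p = 0.0286, adjusted 0.0343). Eln over Fbn1 was 1.83, 1.94, 1.21 and 1.48 before birth and 4.35, 8.96, 5.39 and 6.92 at P14, so that even P14 library 1 lay above every fetal library. That difference was 1.96 on the log2 scale (exact p = 0.0286, adjusted 0.0343).

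Fbln5 over Eln fell between the ages by 1.52 on the log2 scale (exact p = 0.0286, adjusted 0.0343), from 0.158 to 0.187 before birth to 0.0519 to 0.0817 at P14. Mfap4 over Emilin1 was 1.65 to 1.83 before birth and 0.803 to 1.18 at P14, a difference of -0.89 (exact p = 0.0286, adjusted 0.0343). Fbln2 over Fbln1 overlapped through P14 library 1, which was at 0.32 between the fetal values of 0.216 to 0.341, and did not pass (difference 0.71, exact p = 0.0571, adjusted 0.0571). Without that library the difference was 0.88 (exact p = 0.0286, the smallest possible, adjusted 0.0286). In the 5 ratios that passed, the ages were fully separated in all 8 libraries. With 4 libraries per age an exact p of 0.0286 requires that separation, so it adds nothing to the test. Eln and Fbn1 each enter more than 1 ratio, so the ratios are not separate results. No rule for choosing these pairs is given, and the adjustment covers only the pairs listed. Each ratio that passed holds a gene called in the single-gene fit without P14 library 1 (Eln, Fbn2, Mfap2, Mfap4 or Mfap5). Such a ratio therefore restates the single-gene results in part. The share of other gene pairs that separate the ages was not computed, so the number of ratios that passed has no background to be set against.

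**Figure D3:**
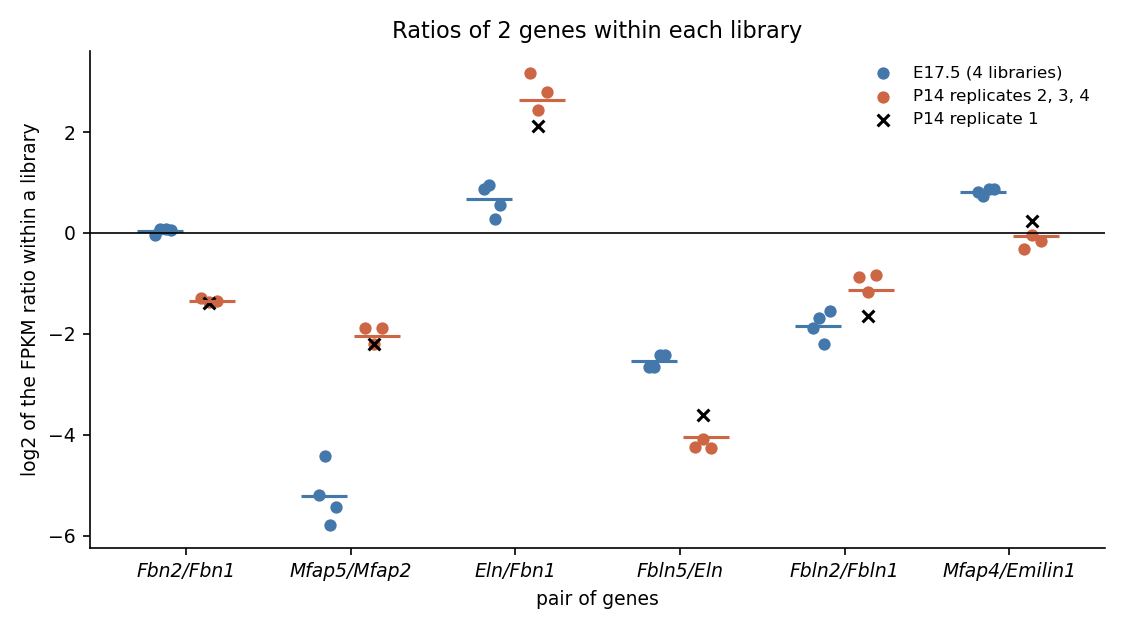
Log2 of the FPKM ratio of 2 genes within each library, for 6 pairs, with E17.5 in blue, P14 libraries 2, 3 and 4 in orange, P14 library 1 as a cross and lines at the means. The cross lies on the P14 side in every pair but Fbln2 over Fbln1, where it falls among the fetal points.

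The make-up of the 10 genes' summed FPKM moved towards elastin. Eln took 10.3% to 13.0% of that sum in the fetal libraries and 28.96%, 46.4%, 34.6% and 42.9% in P14 libraries 1 to 4. Mfap2 took 17.498% to 20.8% before birth and 7.0% to 10.1% at P14, Mfap4 22.4% to 26.9% and 10.6% to 16.8%, and Fbn2 6.29% to 9.16% and 2.11% to 2.52%. Mfap5 took 0.352% to 0.818% and 1.89% to 2.22%. The share of Emilin1 overlapped between the ages, 12.3% to 15.8% and 12.7% to 14.7%. Since the shares of a library add up to the whole, a rise in Eln lowers the others by construction.

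**Figure D4:**
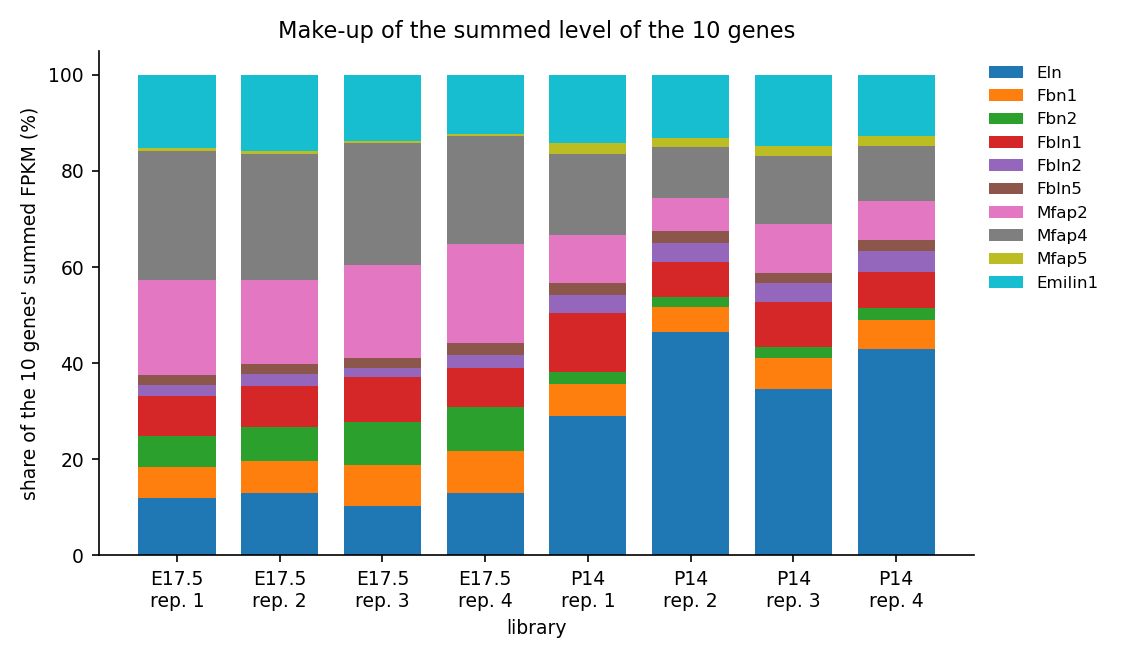
Share of each gene in the summed FPKM of the 10 genes (%, stacked bars) in each library. The Eln share is 10.3% to 13.0% in the fetal bars and 28.96% to 46.4% in the P14 bars, P14 library 1 included.

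In order of level before birth, Mfap4 (177 FPKM) and Mfap2 (135) stood first with overlapping ranges, followed by Emilin1 (101), Eln (84.4), Fbln1 (59.6), Fbn2 (54.1) and Fbn1 (52.5), neighbours whose ranges overlapped. Fbln2 (16.8) and Fbln5 (14.4) came next, also overlapping, and Mfap5 (3.92) last and apart. At P14 without replicate 1, Eln (341) stood first, apart from Emilin1 (109), Mfap4 (96.8) and Mfap2 (67.3), each apart from the one above it. Fbln1 (64.4) overlapped Mfap2, Fbn1 (47.8) and Fbln2 (33.4) stood apart, and Fbn2 (18.9), Fbln5 (18.3) and Mfap5 (16.96) overlapped one another as neighbours. With P14 library 1 included, all neighbours at P14 overlapped.

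Set against the summed fibroblast markers of the same library, 3 members were higher at P14 with no overlap (Eln, Fbln2 and Mfap5) and 3 lower (Fbn2, Mfap2 and Mfap4). By the same measure 24.5% of tested genes were higher and 4.81% lower without overlap (29.3% in all). Eln was at 2.17% to 3.07% of the fibroblast sum before birth and 6.36% to 13.2% at P14, and Fbn1 at 1.53% to 1.79% and 1.41% to 1.6%. Against the summed smooth muscle markers, Eln and Mfap5 were higher and 6 members lower (Fbn1, Fbn2, Fbln5, Mfap2, Mfap4 and Emilin1), with a background of 3.97% and 15.7% (19.7% in all). Eln was at 1.31% to 1.98% of the smooth muscle sum before birth and 2.44% to 3.76% at P14. Against pericyte and vascular muscle markers, another cell type known to make elastin, 1 member was higher (Mfap5) and 7 lower (Fbn1, Fbn2, Fbln1, Fbln5, Mfap2, Mfap4 and Emilin1), with a background of 3.47% and 24.9% (28.3% in all), and Eln overlapped between the ages, at 35.1% to 54.3% and 51.3% to 108%. All 8 libraries enter these counts, so a member separated only without P14 library 1 is not in them. These are descriptions with no test, and 9 of 9 tested smooth muscle markers were themselves called higher at P14 without P14 library 1. The pericyte and vascular muscle sum was 182 to 188 FPKM before birth and 335 to 392 in P14 libraries 2, 3 and 4. Its largest part, Rgs5, was called higher at P14 (limma log2 fold change 1.23, adjusted p = 0.0242) and Notch3 lower (-1.41, adjusted p = 0.0132). A member's level against that sum thus depends much on Rgs5. The fibroblast markers differed as well. Dpt was called higher with all libraries (limma log2 fold change 2.01, adjusted p = 0.00441). Pdgfra (-0.82, adjusted p = 0.0122) and Pdgfrb (-1.26, adjusted p = 0.00268) were called lower, and 6 were not called. Col1a1, Col1a2, Col3a1 and Vim made up most of the fibroblast sum. A member's level against it is therefore not a level per fibroblast.

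Profiles over the 8 libraries were compared by the root-mean-square difference of log2(FPKM + 1), each gene centred on its own mean. Closest to Eln were C1qtnf3 (0.172), Clec11a (0.178), Wfdc1 (0.18), Osr1 (0.182) and Cav3 (0.192). Closest to Fbn1 were Mpdz (0.0547), Fermt2 (0.0883), Susd4 (0.0884), Thbs2 (0.0988) and Pbx3 (0.0999). Closest to Fbn2 were Lox (0.116), the gene of lysyl oxidase, and Fbln7 (0.139), that of a fibulin, then Slc38a4 (0.144), F13a1 (0.168) and Myh10 (0.18). All of these distances include P14 library 1, in which each of the 10 genes was low. Over the other 7 libraries the same genes lay at 0.114 to 0.192 from Eln, 0.0518 to 0.103 from Fbn1 and 0.107 to 0.163 from Fbn2.

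Another 61 genes of elastic fibre assembly, binding and turnover were listed by role, and 58 were tested (Itgb6, Mmp12 and Elane were too low). Of these, 4 rose and 17 fell with all libraries, and 13 rose and 22 fell without P14 library 1, against the backgrounds of 9.72% and 15.0%, then 22.6% and 26.9%. Their median log2 fold change was -0.32 and then -0.15. All 21 genes called with all libraries were also called, in the same direction, without P14 library 1.

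Among the 5 lysyl oxidase genes, 0 rose and 1 fell with all libraries, and 1 rose and 2 fell without P14 library 1. Lox, the main cross-linking enzyme, was at 57.7 ± 4.34 FPKM before birth and 14.8 ± 6.24 at P14 (log2 fold change -2.02, SE 0.345, adjusted p = 0.0059), with no overlap. It fell by 1.63 without P14 library 1 (adjusted p = 7.7e-06). Loxl2, a family member also active on basement membrane collagen, had 57.5 ± 8.16 FPKM before birth and 34.3 ± 12.2 after (a change of -0.80, adjusted p = 0.0791) and fell without P14 library 1 (log2 fold change -0.50, adjusted p = 0.00866). Loxl1, the enzyme most tied to elastin, was named after its values were seen. It was at 19.5 ± 3.58 FPKM before birth and 33.1 ± 16.3 at P14 (adjusted p = 0.433), and without P14 library 1 it rose to 41.1 ± 3.8 (n = 3; log2 fold change 1.05, adjusted p = 0.000517).

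Of 11 latent TGF-beta binding proteins and fibulin or EMILIN relatives, 1 rose and 4 fell (3 and 5 without P14 library 1). Fbln7 fell by 1.78 on the log2 scale (SE 0.302, adjusted p = 0.00577), Emilin3, an EMILIN relative, by 1.53 (SE 0.31, adjusted p = 0.0112) and Mmrn1, an EMILIN-family protein of platelets and endothelium, by 1.32 (SE 0.184, adjusted p = 0.00291). These 3 genes fell by 1.45, 1.19 and 1.26 without P14 library 1. Blood endothelial markers also fell, 7 of 8 called lower, against 15.0% of all tested genes. Their sums were 681 to 741 FPKM before birth and 214 to 490 at P14. P14 library 1 was at 0.5 times the mean of the other P14 libraries in that sum and at 0.818 times in Mmrn1. Markers of lymphatic endothelium were not listed, and the part of endothelial cells in the Mmrn1 result was not tested. Ltbp4, which takes part in elastin assembly and had the highest level of the 11, was at 143 ± 18.5 and 108 ± 43.2 FPKM (adjusted p = 0.295). The fourth to fall was Mmrn2, an endothelial EMILIN relative (log2 fold change -0.78, adjusted p = 0.0244; -0.57 with P14 library 1 left out), a call lost without any one of fetal libraries 1 to 4 (adjusted p 0.0607 to 0.0669). Mmrn2, Ltbp2, Efemp1 and Efemp2 were named after their values were seen. Ltbp2, a binding protein of fibrillin microfibrils, rose from 2.63 ± 0.255 to 6.43 ± 1.87 FPKM (log2 fold change 0.996, SE 0.2, adjusted p = 0.0109), or by 1.19 when P14 library 1 was left out, a call lost with all libraries on TPM (adjusted p = 0.0551). Efemp1, the gene of fibulin-3, rose only without P14 library 1 (log2 fold change 1.34, adjusted p = 0.000289; 0.86 and 0.184 with it). Efemp2, that of fibulin-4, which recruits lysyl oxidase to elastin, did not pass with or without it (log2 fold change -0.64, adjusted p = 0.179, and -0.30, adjusted p = 0.0779).

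Among 9 genes for fibrillin processing and ADAMTS-like proteins, 1 rose and 3 fell (2 and 3 without P14 library 1). Adamtsl3 rose from 1.87 ± 0.169 to 6.74 ± 2.68 FPKM (log2 fold change 1.34, SE 0.287, adjusted p = 0.0139). Adamts6, a metalloproteinase acting on microfibrils, fell by 1.201 (SE 0.197, adjusted p = 0.00514), and Thsd4, which encodes a fibrillin-binding ADAMTS-like protein, fell from 20.7 ± 0.696 to 10.3 ± 0.68 FPKM (adjusted p = 0.000709). The other gene that fell, named after its values were seen, was Adamtsl2 (log2 fold change -0.84, adjusted p = 0.00794). Its levels were low, at 1.93 ± 0.201 FPKM before birth and 0.656 ± 0.339 at P14. Log2 fold changes without P14 library 1 were 1.65 for Adamtsl3, -1.05 for Adamts6, -0.89 for Thsd4 and -0.74 for Adamtsl2. P14 library 1 lay near the others in Thsd4. Furin, the protease that trims profibrillin, was at 20.4 ± 2.96 and 29.7 ± 9.1 FPKM (adjusted p = 0.114). Of 4 genes for folding, copper and export, Atp7a, the copper pump that loads lysyl oxidases, fell by 0.99 (SE 0.232, adjusted p = 0.0193), a call lost without any one of fetal libraries 3 and 4 and P14 libraries 3 and 4 (adjusted p 0.0513 to 0.0621), and by 1.22 without P14 library 1. Fkbp10, a tropoelastin chaperone, was at 55.1 ± 5.16 and 48.5 ± 21.1 FPKM (adjusted p = 0.551).

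Of 8 binding partners in the matrix and TGF-beta ligands, 0 rose and 3 fell (3 and 4 without P14 library 1). Vcan, the proteoglycan versican, fell by 1.19 (SE 0.165, adjusted p = 0.00272), Bgn, the proteoglycan biglycan, from 179 ± 8.01 to 89.0 ± 17.8 FPKM (adjusted p = 0.00427) and Tgfb1 by 0.62 (SE 0.157, adjusted p = 0.0248). The Tgfb1 call was lost without any one of fetal libraries 1, 2 and 3 and P14 library 2 (adjusted p 0.0511 to 0.0675). The log2 fold changes of Vcan, Bgn and Tgfb1 without P14 library 1 were -1.06, -0.87 and -0.53. Dcn, decorin, had the highest level, 261 ± 12.1 and 259 ± 97.1 FPKM (adjusted p = 0.801), and rose by 0.23 without P14 library 1 (adjusted p = 0.0237). That call was lost on TPM (0.165, adjusted p = 0.0822) and reversed when scaled to fibroblast and smooth muscle markers (-0.39, adjusted p = 0.00326). Dcn is itself among those markers, and the scaling put the median of all genes at -0.65, so the reversal is not read as a result about Dcn.

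Among 10 tested receptor genes, 0 rose and 3 fell (0 and 4 without P14 library 1). Itga8, a partner of integrin beta-1 that binds RGD proteins, fell from 19.8 ± 1.75 to 6.79 ± 1.7 FPKM (adjusted p = 0.00181), and Itgav, which binds fibrillin and latent TGF-beta, fell by 0.85 (SE 0.145, adjusted p = 0.00569). Itgb8 fell by 0.42 (SE 0.119, adjusted p = 0.0363). Its levels were low, at 1.61 ± 0.311 FPKM before birth and 0.947 ± 0.133 at P14. The Itgb8 call was lost without any one of fetal libraries 2, 3 and 4 and P14 libraries 2, 3 and 4 (adjusted p 0.0509 to 0.0962). With P14 library 1 left out, Itga8 fell by 1.27, Itgav by 0.86 and Itgb8 by 0.37. Itgb1, the most abundant, was at 353 ± 13.6 and 278 ± 78.2 FPKM (adjusted p = 0.216).

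Of 11 tested proteases and inhibitors, 2 rose and 2 fell (4 and 3 without P14 library 1). The gelatinases, which can cleave elastin and fibrillin, both fell: Mmp2 from 159 ± 16.3 to 53.1 ± 10.9 FPKM (log2 fold change -1.58, SE 0.162, adjusted p = 0.000964) and Mmp9 from 37.2 ± 7.01 to 8.21 ± 3.82 (log2 fold change -2.14, SE 0.319, adjusted p = 0.00379). They fell by 1.46 and 2.17 without P14 library 1. Macrophage markers also fell, 6 of 7 called lower, against 15.0% of all tested genes. Their sums were 335 to 387 FPKM before birth and 142 to 219 at P14, and their part in the Mmp9 result was not tested. Cela1, an elastase, rose by 0.64 (SE 0.161, adjusted p = 0.0239). Its levels were low, at 1.39 ± 0.46 FPKM before birth and 2.69 ± 0.368 at P14. The Cela1 call was lost without any one of fetal libraries 2 and 4 and P14 libraries 3 and 4 (adjusted p 0.0581 to 0.0699). It was also lost on TPM (0.0849) and in voom (0.074). The other gene that rose, named after its values were seen, was Cst3, the cathepsin inhibitor cystatin C, from 175 ± 14.3 to 256 ± 24.7 FPKM (adjusted p = 0.0104), a rise of 0.54 in log2 with all libraries and 0.60 without P14 library 1. That call was lost on TPM (adjusted p = 0.189), with quantile normalization (0.262) and in voom (0.089). Ctsl, a lysosomal cathepsin and the gene of the list with the highest mean level, was at 1345, 59.0, 237 and 99.3 FPKM in P14 libraries 1 to 4 and 45.9 ± 5.29 before birth (log2 fold change 2.17, adjusted p = 0.0997). Its log2 fold change was 1.27 without P14 library 1 (adjusted p = 0.05003) and 2.77 without P14 library 2, where it passed (adjusted p = 0.0453). Its order among the P14 libraries was that of the epithelial sum.

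**Figure D5:**
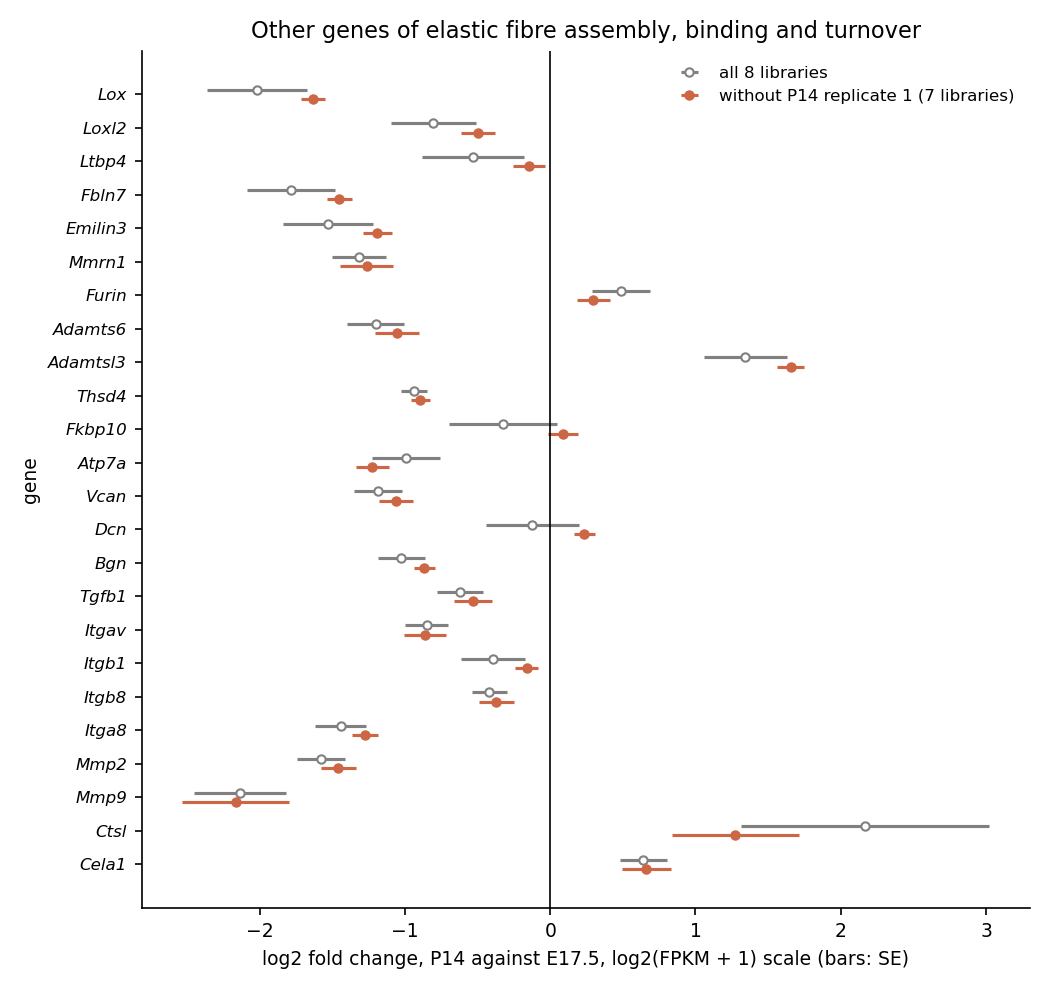
Change from E17.5 to P14 in log2(FPKM + 1), bars giving the SE, of the other elastic fibre genes named by rule, from all 8 libraries (open grey) and without P14 library 1 (orange). Lox (-2.02) and Mmp9 (-2.14) lie farthest left with all libraries, and Adamtsl3, Cela1, Furin and Ctsl are the ones to the right of 0 in both fits.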

How the data were processed

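The authors deposited 1 table of FPKM per gene and sample, which per the file headers also lists gene length, position and biotype. The submitters' processing notes name the build GRCm39 and the tools HISAT2, featureCounts, fastp, CASAVA and DESeq2 1.20.0 but give them no role. The step behind the FPKM and the use of strand in counting are not stated in the sources used here. All FPKM, multiplied by gene length, were whole multiples of 1 step per library (100%, tolerance 1e-06), so reads were recovered from them. The effective library size that this step implies was 0.78 times the assigned reads for P14 library 1 and 1.02 to 1.06 times for the others, which raises the FPKM of P14 library 1 relative to its reads. A gene with 0 reads could hold up to 3, counting error only. The 302 loci with no gene name took 0.183% to 0.246% of reads.

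Groups and replicate numbers came from sample titles. The 14044 genes at FPKM 1 or above in 4 or more of the 8 libraries were tested on log2(FPKM + 1) in limma 3.58.1 (R 4.3.3, statmod 1.5.0, intensity trend, robust, two-sided). Adjusted p-values are Benjamini-Hochberg over these genes, called under 0.05. With a pseudocount of 1, fold changes of low genes come out too small. Ratios of 2 members used no pseudocount. The fit was tested on simulated data whose spread was taken without P14 library 1. The simulation thus does not cover the spread that this library adds to the fits with all 8 libraries. The 10 genes and all lists were chosen with earlier results of these data known. Named were the 10 genes, for each group of other elastic fibre genes up to 3 called genes with the largest change plus the gene of highest level, and the 5 nearest profiles of Eln, Fbn1 and Fbn2. Alternatives were another pseudocount, no filter, TPM, median-of-ratios, quantile and marker scaling, voom on recovered reads, a replicate block and leaving out each library. Promoter coordinates are RefSeq's on GRCm38.p6 and were not joined to the table's.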

Additional observations from a re-analysis of the deposited data

Results flagged for a closer look

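In 32 groups of 4 values (10 genes and 6 ratios at 2 ages), 4 had a sample far from the others by Dixon's test, which chance alone gives in about 1 group in 20. In 3 of the 4 it was P14 library 1 among the P14 libraries. Fbln1 was at 30.2 FPKM there and at 63.3 to 66.3 in the other P14 libraries, Mfap2 at 24.9 against 64.0 to 69.6, and Mfap4 at 41.6 against 95.2 to 98.5. The fourth was the log2 ratio of Fbn2 to Fbn1 in fetal library 1, at -0.0506 against 0.0583 to 0.0796 in the other fetal libraries, a gap far smaller than the difference of -1.40 between the ages.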

How the results depend on the processing

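With 1 library left out at a time, the number of called genes ran from 1735 to 6958 (3473 with all), and log2 fold changes ran from 1.13 to 1.98 for Eln, -0.67 to -0.13 for Fbn1, -1.99 to -1.47 for Fbn2, -0.25 to 0.12 for Fbln1, 0.36 to 0.96 for Fbln2, -0.28 to 0.31 for Fbln5, -1.47 to -0.99 for Mfap2, -1.26 to -0.84 for Mfap4, 1.38 to 1.93 for Mfap5 and -0.44 to 0.14 for Emilin1. The reversals, of Fbln1, Fbln5 and Emilin1, came without P14 library 1 (0.12, 0.31 and 0.14), as did those of Fkbp10 (from -0.50 to 0.0888 over the libraries left out) and Dcn (-0.26 to 0.23). Differences in log2 ratio ran from -1.43 to -1.38 for Fbn2 to Fbn1, 2.97 to 3.43 for Mfap5 to Mfap2, 1.78 to 2.13 for Eln to Fbn1, -1.66 to -1.44 for Fbln5 to Eln, 0.59 to 0.88 for Fbln2 to Fbln1 and -0.99 to -0.81 for Mfap4 to Emilin1.

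Same-numbered libraries did not deviate together (correlations across genes of -0.06 to 0.01), so the numbers are not read as pairs. With the replicate number as a replicate block, 1744 genes were called, and Mfap2 (-1.34, adjusted p = 0.0641), Mfap4 (-1.14, 0.0804) and Mfap5 (1.56, 0.0608) lost their calls, as did Atp7a (adjusted p = 0.0676), Tgfb1 (0.0966), Itgb8 (0.0803), Mmrn2 (0.0646) and Cst3 (0.0566), while Fbn2 kept its own (0.0253). A sign-flip test within the replicate block cannot go below 0.125, so the ratio differences (-1.40, 3.16, 1.96, -1.52 and -0.89) could not pass there.

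Calls were also lost in 4 further settings. These were, with no filter on low values, Mfap4 (-1.14, adjusted p = 0.0601), Mfap5 (1.56, 0.0567), Tgfb1 (0.0532), Itgb8 (0.0782), Cela1 (0.0531) and Mmrn2 (0.0537); in voom on recovered reads, Mfap4 (-1.25, 0.0539), Mfap5 (1.72, 0.0734), Cela1 (0.074), Mmrn2 (0.0528) and Cst3 (0.089); on TPM, Mfap5 (1.53, 0.0612), Cela1 (0.0849), Ltbp2 (0.0551) and Cst3 (0.189); and with quantile normalization Cst3 (0.262). The cause was not tested. The median of all genes stood at 0.00219 on FPKM, -0.18 on TPM and -0.26 with marker scaling, and increases made up 39.3% of calls on FPKM, 25.1% on TPM, 29.7% in voom and 19.8% with marker scaling. The deposited values already had equal median-of-ratios factors, so that alternative returned the values as they were. Scaled to fibroblast and smooth muscle markers, 888 genes were called, Eln passed (1.16, adjusted p = 0.046), Loxl2 and Efemp2 passed as lower, and 9 of the other elastic fibre genes named lost their calls (Thsd4, Atp7a, Tgfb1, Itgav, Itgb8, Cela1, Ltbp2, Adamtsl2 and Cst3). Added after the data were seen were 2 settings without P14 library 1. On TPM, 7128 genes were called, with Eln at 1.92, Fbln2 at 0.92 and Fbn1 at -0.21 passing and Fbln1 at 0.0507, Fbln5 at 0.25, Emilin1 at 0.0745, Fkbp10 at 0.0197 and Dcn at 0.165 not called and reversed. With marker scaling, 11054 genes were called, the median of all genes stood at -0.65 (-0.03 without P14 library 1 on FPKM), Eln (1.35) and Fbln2 (0.33) passed as higher, Fbn1 (-0.76), Fbln1 (-0.51), Fbln5 (-0.32) and Emilin1 (-0.48) as lower, Furin turned to -0.33 and Cst3 to -0.0302, and Cela1 lost its call (adjusted p = 0.871).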
